A study of Mus musculus with 8 samples.

Results

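The genes described here build and attach the glycosylphosphatidylinositol (GPI) anchor. They were compared between EpCAM-positive cells of the mouse liver that retained a nuclear label, which division dilutes, and those without it. The 10 genes were Pigw, Piga, Pigk, Pigm, Pigo, Pigs, Pigt, Pigv, Pigx and Pgap1, out of 46603 genes in the count table. All 10 were found by symbol, and all 10 were among the 13605 genes that passed the expression filter. They were chosen by the read counts of Pigw, which had no reads in any EGFP-negative library. Pigw passed the filter through the EGFP-positive libraries alone, so its difference between the groups was fixed by the choice and is given below as a description without a test. The study also listed Pigw from these samples. The other 9 genes were chosen for their place in the same pathway.

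RNA was sequenced from liver cells of 4 mice, named JV602, JV621, JV624 and JV6314, with a pair of libraries from each animal, 1 of EGFP-positive and 1 of EGFP-negative cells. Every mouse carried 1 copy of R26-rtTA, a doxycycline-dependent transactivator driven by the ubiquitously active Rosa26 locus, and 1 copy of H2B-EGFP, a histone fused to a green fluorescent protein under a promoter that the transactivator switches on. Doxycycline reached all of these pups through their nursing mothers from birth to postnatal day 5, and cells were sorted at 8 weeks of age, when the label had been diluted in cells that had divided. EGFP-positive, EpCAM-positive and CD45-negative cells are called liver label-retaining cells (LLRCs), and EGFP-negative, EpCAM-positive and CD45-negative cells are called non-LRC cells. The background was mixed C57BL/6 and CBA. The mice thus formed a single genotype and treatment, and the comparison was between 2 sorted fractions of the same liver. The transactivator is not specific to biliary cells, and the sort depended on retained label and surface protein, not on lineage.

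The GPI anchor is a glycolipid that holds many proteins on the outer face of the cell. It is assembled on phosphatidylinositol in the endoplasmic reticulum by the stepwise addition of N-acetylglucosamine, an acyl chain on inositol, mannoses and ethanolamine phosphates, and is then joined to the protein by a transamidase complex. PIGA is the catalytic subunit of the enzyme that adds the first sugar. PIGW adds the acyl chain to inositol, PIGM with its partner PIGX adds the first mannose, and PIGV adds the second. PIGO adds the ethanolamine phosphate through which the protein is later linked. PIGK is the catalytic subunit of the transamidase, and PIGS and PIGT are other subunits of it. PGAP1 acts after attachment and removes the acyl chain that PIGW had added.

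The start of Pigw is shown with those of Pigx and Pgap1, since these genes stood at different places in the data. Pigw was read in LLRC libraries only, Pigx had the highest level per length of the 10 genes, and Pgap1 encodes the enzyme that reverses the step of PIGW and had 0 reads in a single library. Each line is a RefSeq window of 300 bases on GRCm38.p6, from 250 bases before to 50 after the start, 5′ to 3′ on the strand of the gene. The windows lie at chr11:84880146-84880445 (minus strand) for Pigw, chr16:32099678-32099977 (minus strand) for Pigx and chr1:54557635-54557934 (minus strand) for Pgap1. Both strands were searched for 4 motifs, and capitals mark the matches. The GC box was searched as GGGCGG. The CCAAT box was searched as these letters of its name. The TATA box was searched as TATAAA, and the E-box as CACGTG.
Pigw: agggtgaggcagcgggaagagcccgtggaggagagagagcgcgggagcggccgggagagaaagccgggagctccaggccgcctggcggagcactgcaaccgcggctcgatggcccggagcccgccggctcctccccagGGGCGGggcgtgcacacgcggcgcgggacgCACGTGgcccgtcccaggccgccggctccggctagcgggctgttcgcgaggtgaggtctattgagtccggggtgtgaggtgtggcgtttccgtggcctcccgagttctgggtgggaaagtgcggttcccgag
Pigx: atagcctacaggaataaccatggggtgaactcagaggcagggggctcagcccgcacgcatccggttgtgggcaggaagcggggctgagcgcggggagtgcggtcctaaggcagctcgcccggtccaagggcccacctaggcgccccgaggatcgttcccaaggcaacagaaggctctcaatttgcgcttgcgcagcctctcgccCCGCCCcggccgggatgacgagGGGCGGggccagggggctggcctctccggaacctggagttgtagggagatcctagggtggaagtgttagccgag
Pgap1: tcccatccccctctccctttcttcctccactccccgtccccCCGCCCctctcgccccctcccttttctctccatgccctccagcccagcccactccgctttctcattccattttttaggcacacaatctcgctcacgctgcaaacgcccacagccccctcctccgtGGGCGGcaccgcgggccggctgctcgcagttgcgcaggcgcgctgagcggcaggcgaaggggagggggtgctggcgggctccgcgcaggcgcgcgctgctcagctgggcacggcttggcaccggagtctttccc

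The window of Pigw was 73% G and C and held 36 CpG dinucleotides, against medians of 52.7% and 7 over 32851 windows. It held a GC box and an E-box, which do not overlap. The E-box was present in 1 of the 8 members with a window, which was Pigw, and in 7.15% of all windows. A GC box was found in 6 of these 8 members and in 35.7% of all windows. The 8 members had 11 windows, and a member counted if any of its windows matched, so its unit differs from that of the shares. A CCAAT box was found in 3 members (Piga, Pigs and Pigt) and in 37.4% of all windows. No member's window held a TATA box, which 13.6% of all windows had. The matches describe the letters of these windows and not sites in use.

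Pigw (ENSMUSG00000045140) lies on the minus strand at chr11:84876315-84880285 of GRCm38. Its 2733 exonic bases form 3 blocks, and its whole coding sequence of 1509 bases lies in 1 of them. Myo19, a myosin gene on the plus strand at chr11:84880148-84911226, starts head to head with it and shares 106 exonic bases, 3.88% of the exonic bases of Pigw. The RefSeq windows of both genes share 74 bases. The counting took no account of strand, so reads in the shared bases could not be assigned to either gene. Of the other members, Pigk shares 108 exonic bases (1.14%) with St6galnac5 on the opposite strand, which had 7 counts in the non-LRC library of JV621 and 0 counts in the others.

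The LLRC libraries held 7860021 to 9851819 counts in total, and the non-LRC libraries 4670132 to 8056103. The non-LRC libraries of JV621 and JV6314 stood apart. Of the 13605 genes tested, they lacked reads for 15.6% and 7.75%, against 0.345% to 1.57% in the other 6 libraries. Cholangiocyte markers were abundant in all libraries, with a summed level of 113230 to 220278 CPM (counts scaled by library size and TMM) in LLRCs and 65447 to 160566 CPM in non-LRC cells. The summed level of 6 endothelial markers was 14.8 to 29.8 CPM in LLRCs and 96.4 to 321 CPM in non-LRC cells, and the groups did not overlap. Hepatocyte markers were between 2536 and 3086 CPM in LLRCs, against 1967 to 5027 CPM in non-LRC cells. Stellate cell and fibroblast markers overlapped between the groups, at 2203 to 9247 CPM and 2838 to 6846 CPM. Only 2 of these 5 markers passed the expression filter, as did 1 of 6 leukocyte markers and 1 of 5 pancreatic acinar markers. These sums can thus rest on few genes and do not measure the share of a cell type. Leukocyte markers summed to 1.55 to 6.55 CPM and 0.626 to 13.3 CPM, and Cd3e was at 0 in all libraries. Pancreatic acinar markers were between 1.89 and 7.46 CPM in LLRCs, against 5.26 to 657 CPM in non-LRC cells, with the highest level in JV6314. The part of these markers in the results below was not tested. In sorted bulk samples, fewer cells of a type and less RNA per cell cannot be told apart.

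Pigw was read in every LLRC library and in no non-LRC library. In the order JV602, JV621, JV624 and JV6314, the LLRC libraries held 63, 30, 36 and 15 counts and their non-LRC counterparts 0, 0, 0 and 0. These counts corresponded to 6.11, 3.55, 5.29 and 1.67 CPM in LLRCs, a mean of 4.15 ± 1.97 CPM (SD, n = 4). The LLRC libraries thus differed by 3.67-fold between the highest and the lowest, and the lowest, JV6314, was still above all non-LRC libraries.

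A count of 0 allows up to 3 counts, which is 0.376, 0.626, 0.474 and 0.592 CPM in the non-LRC libraries of the 4 mice. Against the mean of these limits, 0.517 CPM, Pigw was at least 8.04-fold higher in LLRCs. Without 1 LLRC library the bound was 6.78 (JV602 left out), 8.43 (JV621), 7.3 (JV624) or 9.64 (JV6314). The bound covers counting error only. The 0 counts are the values by which Pigw was chosen. The non-LRC libraries of JV621 and JV6314 lacked many genes and those of JV602 and JV624 few, and the cause of the 0 counts was not tested.

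The genes beside Pigw did not share its pattern. Ggnbp2, which lies 5497 bases away on the same strand at chr11:84832361-84870817, had 1173, 838, 1356 and 1673 counts in LLRCs and 1295, 317, 1073 and 552 counts in non-LRC cells. Its log2 fold change (LLRC over non-LRC) was 0.24 (SE 0.38, adjusted p = 1 in edgeR's quasi-likelihood test), and the groups overlapped. Myo19 had 6, 8, 11 and 12 counts in LLRCs and 13, 0, 32 and 0 counts in non-LRC cells, and did not pass the expression filter. Its highest count was thus in the non-LRC library of JV624, in which Pigw had no read.

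**Figure D1:**
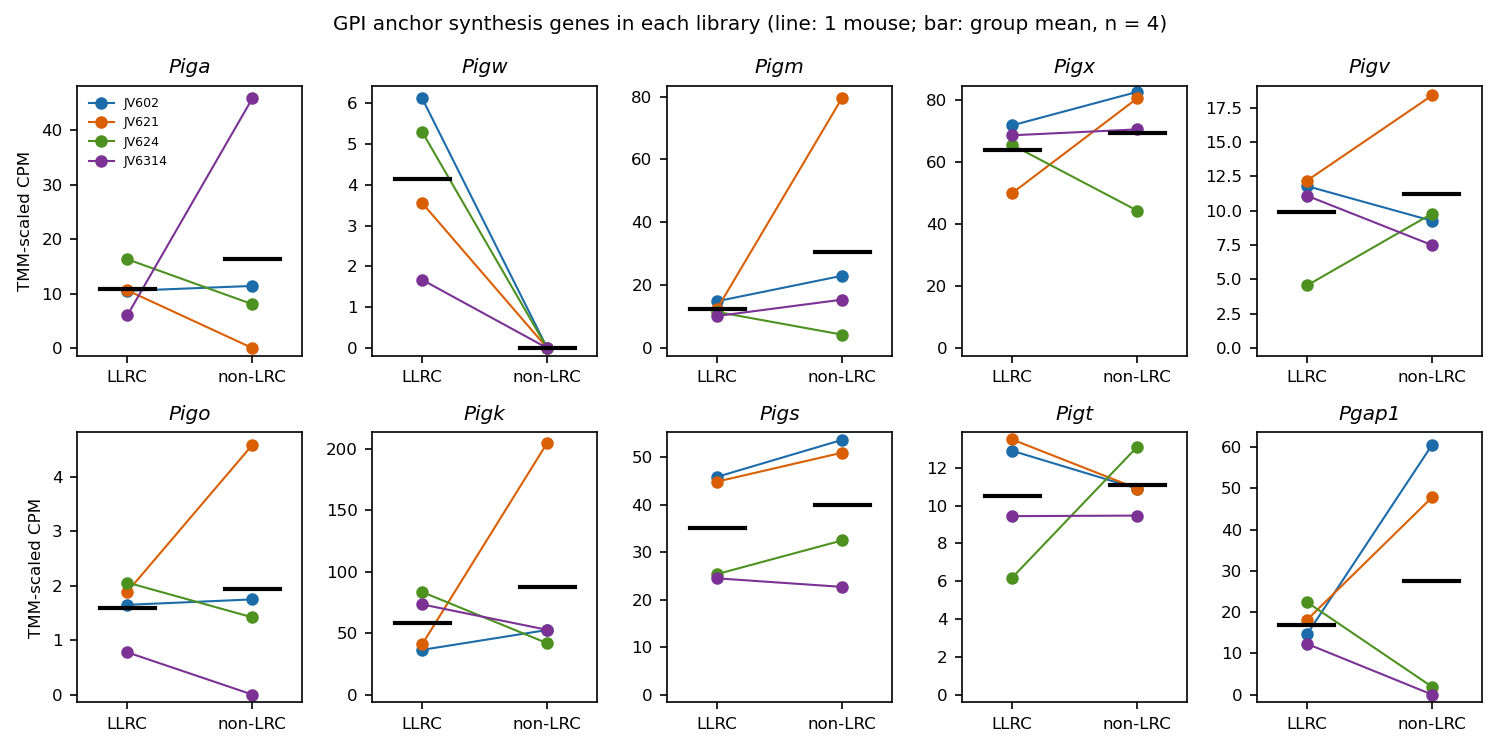
Level of each of the 10 genes in CPM (counts scaled by library size and TMM; vertical axis, linear, with its own scale in each panel) in LLRC and non-LRC libraries. Each point is a library, each line joins the libraries of a mouse and the black bar is the mean of 4 libraries. Pigw alone has all LLRC libraries (1.67 to 6.11 CPM) above all non-LRC libraries (0 CPM), and in the other panels the groups overlap.

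For none of the other 9 genes was the difference between LLRCs and non-LRC cells larger than the spread between mice. By the quasi-likelihood test of edgeR, 0 of the 9 had an adjusted p below 0.05, as was the case for 0 of all 13605 genes (0%), and each of the 9 had an adjusted p of 1. At an unadjusted p below 0.05, 0 of the 9 passed in either direction, against 702 of all genes (5.16%). DESeq2 called 0 of the 9, with 221 genes (1.62%) called in all. The exact test of edgeR without the filter also called 0 of the 9. It called 105 of the 13605 genes that passed the filter (0.772%) and 115 of 27591 genes (0.417%) in all. In 0 of the 9 were all LLRC libraries above all non-LRC libraries, which held for 292 genes (2.15%) of those tested, and in 0 were all below, which held for 260 (1.91%). All 9 fitted log2 fold changes were below 0, from -1.31 to -0.08 with a median of -0.28, beside a median of -0.01 over all genes tested. This shared sign did not hold within mice, where the median log2 ratio of the 9 genes was -0.20 in JV602, -0.68 in JV621, 0.56 in JV624 and 0.11 in JV6314.

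Piga (chrX:164419787-164433916), which starts the pathway, had 108, 90, 111 and 54 counts in LLRCs and 91, 0, 51 and 232 counts in non-LRC cells, with the mice in the same order here and below (JV602, JV621, JV624, JV6314). The level was 10.9 ± 4.23 CPM in LLRCs against 16.3 ± 20.2 CPM in non-LRC cells (± SD, 4 libraries each). The non-LRC cells held both the lowest and the highest library, at 0 CPM in JV621 and 45.8 CPM in JV6314. The log2 fold change was -0.59 (SE 1.12), and with the mouse as a block it was 0.55, so the sign depended on the fit. Piga therefore resembled Pigw in JV621, where reads were present in LLRCs and absent in non-LRC cells, and went the other way in JV6314.

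Among the genes of mannose transfer, Pigm had the lowest log2 fold change of these 9. Pigm (chr1:172376546-172384099, a single exon) had 154, 106, 78 and 92 counts in LLRCs and 184, 381, 27 and 78 counts in non-LRC cells, or 12.3 ± 2.0 and 30.6 ± 33.6 CPM. Its log2 fold change was -1.31 (SE 0.74), with the non-LRC library of JV621 at 79.6 CPM and the others between 4.26 and 23.0 CPM. The LLRC libraries lay within this range, between 10.2 and 14.9 CPM. Without the non-LRC library of JV624, the lowest, all LLRC libraries were below the remaining non-LRC libraries, with 14.9 against 15.4 CPM at the nearest. The share of all genes separated in this way was not computed, so nothing is read from it. The log2 fold change was -0.21 without the non-LRC library of JV621, -0.16 without those of JV621 and JV6314, and -0.63 with the mouse as a block.

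Pigx (chr16:32084416-32099740), whose product stabilizes PIGM, was one of the steadiest genes. It had 742, 423, 446 and 619 counts in LLRCs and 660, 386, 281 and 358 counts in non-LRC cells, or 64.1 ± 9.71 and 69.6 ± 17.6 CPM (SD, n = 4). The log2 fold change was -0.12 (SE 0.29), and the ratios within mice were -0.20, -0.68, 0.56 and -0.04 on the log2 scale. Those of Pigm were -0.61, -2.62, 1.33 and -0.57. The ratios of the partners thus had the same sign in all 4 mice, with the lowest in JV621 and the highest in JV624, and those of Pigx were nearer to 0. Pigv (chr4:133660387-133672647) had 122, 103, 31 and 100 counts in LLRCs and 74, 88, 62 and 38 counts in non-LRC cells, or 9.92 ± 3.6 and 11.2 ± 4.86 CPM. Its lowest library was the LLRC library of JV624, at 4.56 CPM, and the log2 fold change was -0.18 (SE 0.49).

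Pigo (chr4:43017635-43025819), of the ethanolamine phosphate step, was the gene with the fewest reads. It had 17, 16, 14 and 7 counts in LLRCs and 14, 22, 9 and 0 counts in non-LRC cells. The level was 1.59 ± 0.57 CPM in LLRCs against 1.94 ± 1.92 CPM in non-LRC cells (± SD, 4 libraries each), and the log2 fold change was -0.28 (SE 0.97). It was 0.35 with the mouse as a block and 0.55 without the non-LRC library of JV621, so the sign depended on the fit. In JV6314, where the non-LRC library had no read, the LLRC library had only 7, so the difference within this mouse was close to the limit of 3 counts.

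The transamidase subunits differed in how evenly they were read. Pigk (chr3:152714100-152980408), the catalytic subunit, had 376, 347, 568 and 661 counts in LLRCs and 420, 981, 265 and 267 counts in non-LRC cells, or 58.6 ± 23.4 and 88.0 ± 78.1 CPM (SD, n = 4). The non-LRC library of JV621 stood at 205 CPM and the other non-LRC libraries between 41.8 and 52.7 CPM. The log2 fold change was -0.59 (SE 0.56), and it was 0.26 without that library. Pigs (chr11:78328415-78342782) had 473, 380, 173 and 221 counts in LLRCs and 429, 244, 206 and 115 counts in non-LRC cells, or 35.2 ± 11.8 and 40.0 ± 14.9 CPM. Its log2 fold change was -0.18 (SE 0.39). In both groups JV602 and JV621 had the higher levels and JV624 and JV6314 the lower, and the ratios within mice were between -0.35 and 0.11. Pigt (chr2:164497520-164508301) had 133, 114, 42 and 85 counts in LLRCs and 87, 52, 83 and 48 counts in non-LRC cells, or 10.5 ± 3.39 and 11.1 ± 1.5 CPM, with a log2 fold change of -0.08 (SE 0.40). Its only low library was the LLRC library of JV624, at 6.18 CPM.

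Pgap1 (chr1:54472994-54557684), the deacylase, was steady in LLRCs and uneven in non-LRC cells. It had 151, 153, 152 and 111 counts in LLRCs and 483, 229, 12 and 0 counts in non-LRC cells. The level was 16.9 ± 4.37 CPM in LLRCs against 27.6 ± 31.2 CPM in non-LRC cells (± SD, 4 libraries each). The ratios within mice were -2.01 in JV602, -1.38 in JV621, 3.25 in JV624 and 4.68 in JV6314 on the log2 scale, so Pgap1 was lower in LLRCs of a pair of mice and higher in LLRCs of the other pair. The log2 fold change was -0.71 (SE 1.25), and 1.15 with the mouse as a block.

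Leaving out the non-LRC libraries of JV621 and JV6314, a choice made after seeing the data, called 0 of these 9 genes. The log2 fold changes then lay between -0.89 (Pgap1) and 0.31 (Pigk). Those of Piga (0.16), Pigk, Pigv (0.06) and Pigx (0.01) were above 0.

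Levels were compared between genes only after division by exonic length, taken over the exons of all annotated transcripts. This was 9495 bases for Pigk, with 1362 coding, and 2501 bases for Pigs, with 1665 coding. The lengths of the transcripts read were not known, so the order depends on this choice. In LLRCs Pigx had the highest level, at 26.7 ± 4.05 CPM per kb (SD, n = 4), followed by Pigs at 14.1 ± 4.72 and Pigk at 6.17 ± 2.46 CPM per kb. The libraries of these 3 genes did not overlap with each other or with the next gene. Pigt (2.72 CPM per kb), Pigv (2.37), Piga (1.7), Pigm (1.63), Pigw (1.52) and Pgap1 (1.01) followed, and each of them overlapped with its neighbour in this order. Pigo was last, at 0.372 ± 0.133 CPM per kb, and its libraries lay below those of Pgap1. Pigw thus lay in the lower part of this order, and its libraries overlapped with those of Pigm and Pgap1. In non-LRC cells Pigx (29 CPM per kb), Pigs (16) and Pigk (9.27) again came first, but all neighbours overlapped.

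The wider GPI pathway was examined with a list of 40 genes, of which 39 were matched in the count table, all of them tested. Pigy, a subunit of the first enzyme, was not matched by symbol. Without Pigw, 38 genes remained, of which 17 had a log2 fold change above 0 and 21 below 0, with a median of -0.05. The sign of this median did not hold within mice, where it was -0.13 in JV602, 0.08 in JV621, 0.18 in JV624 and 0.37 in JV6314, and with the mouse as a block the median of the list with Pigw was 0.20 in place of -0.03. Over all genes tested the share above 0 was 48.9% and the median -0.01. Of the 38 genes, 0 were called by edgeR's quasi-likelihood test, by DESeq2 or by the exact test, and 1 had an unadjusted p below 0.05, in the direction of higher in LLRCs (1.6% of all genes tested). By step, in the fit without the mouse, the medians were -0.17 for 7 genes of the first sugar transfer, -0.18 for 5 genes of mannose transfer, -0.04 for 4 genes of ethanolamine phosphate transfer and -0.08 for 5 transamidase subunits. For 6 remodelling genes the median was -0.07, for 4 genes of export from the endoplasmic reticulum it was 0.11, and for 3 genes of the mannose donor it was 0.03. For 2 genes outside these steps (Arv1 and Gpld1) it was 0.28, and the steps with a single gene, Pigl (3.05) and Clptm1l (-0.69), are given below.

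The gene at an unadjusted p below 0.05 was Pigl, which encodes the deacetylase that acts on the sugar just before the step of PIGW. Pigl had 58, 59, 27 and 31 counts in LLRCs and 16, 1, 0 and 0 counts in non-LRC cells. Its level was 5.0 ± 1.61 CPM in LLRCs against 0.553 ± 0.972 CPM in non-LRC cells (± SD, 4 libraries each), and every LLRC library was above every non-LRC library. The log2 fold change was 3.05 (SE 1.18), higher in LLRCs in 4 of 4 mice. Like Pigw, Pigl passed the expression filter through the LLRC libraries, so a difference in this direction was favoured by the filter. It did not pass after adjustment over all genes (adjusted p = 0.85 in edgeR's quasi-likelihood test, 0.926 with the mouse as a block, 0.701 in edgeR's exact test and 0.307 in DESeq2). Unlike Pigw it was read in a non-LRC library, that of JV602, above the limit of 3 counts.

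The next highest genes of the list were Arv1, with a log2 fold change of 0.85 (SE 1.22), and Pigg, with 0.74 (SE 1.19). Arv1, which encodes a lipid-regulating protein of the endoplasmic reticulum, had 41, 28, 35 and 39 counts in LLRCs and 24, 0, 39 and 0 counts in non-LRC cells. Pigg, which encodes a transferase that adds ethanolamine phosphate to the second mannose, had 250, 184, 16 and 177 counts in LLRCs and 237, 21, 41 and 0 counts in non-LRC cells. Neither gene was higher in all mice. The lowest genes outside the 10 were Pgap3 at -1.16 (SE 1.19), Clptm1l at -0.69 (SE 0.38) and Pigb at -0.67 (SE 0.96). Pgap3, of fatty acid remodelling, had 18, 11, 0 and 8 counts in LLRCs and 14, 21, 18 and 0 counts in non-LRC cells. Pigb, the transferase of the third mannose, had 76, 104, 72 and 32 counts in LLRCs and 41, 178, 71 and 3 counts in non-LRC cells.

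**Figure D2:**
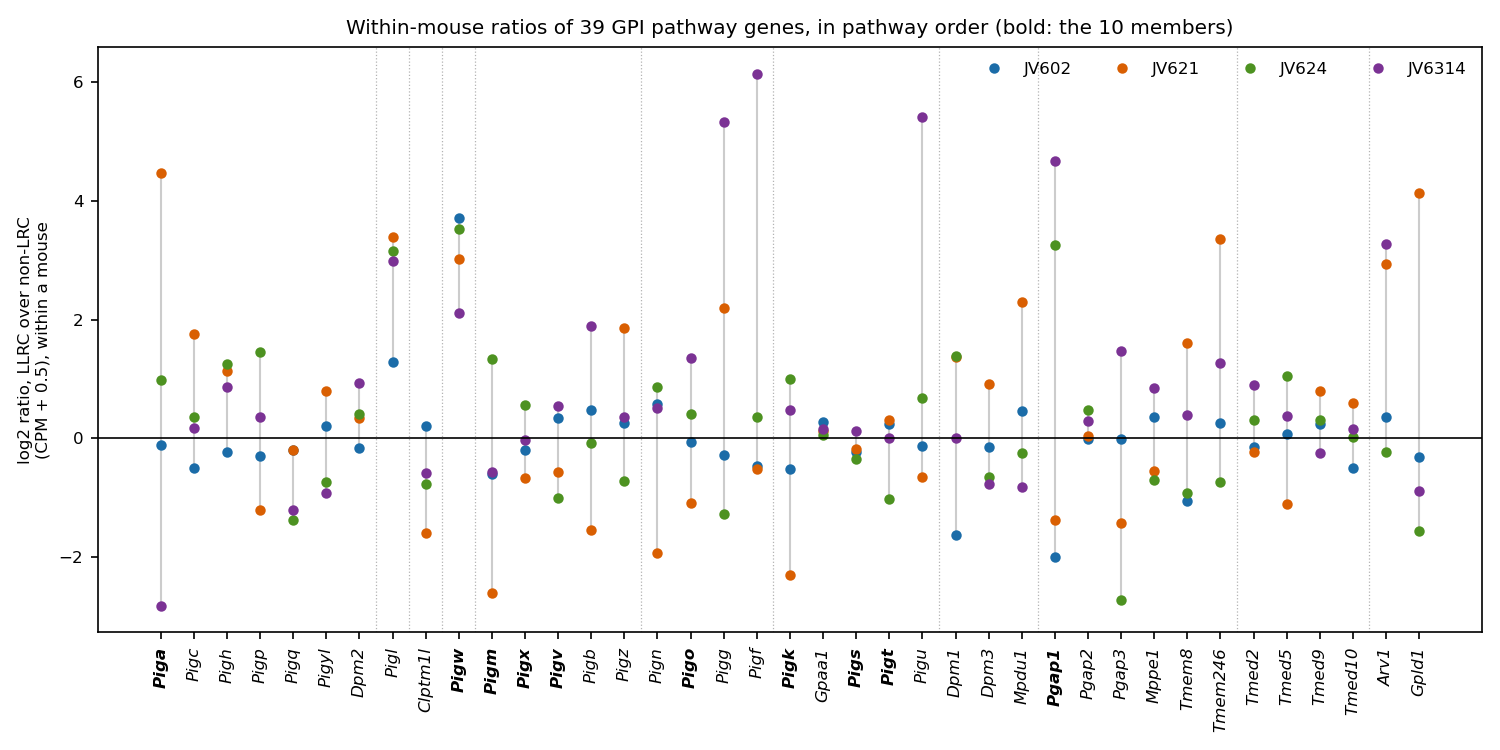
Log2 ratio of LLRC over non-LRC within each mouse (vertical axis, CPM with 0.5 added) for 39 GPI pathway genes in pathway order, with the 10 genes in bold and dotted lines between steps. Each point is a mouse. Pigl and Pigw lie above 0 in all 4 mice by more than 1, and most other genes have points on both sides of 0.

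Genes without a read were more common in non-LRC libraries. Of the 38 pathway genes other than Pigw, 0, 0, 1 and 0 had no read in LLRCs, and 1, 4, 1 and 8 had none in non-LRC cells. In percent, these were 2.63%, 10.5%, 2.63% and 21.1% of the pathway genes in non-LRC cells, beside 1.57%, 15.6%, 1.41% and 7.75% of all genes tested. In JV6314 they included genes with many reads elsewhere. Pigu, a transamidase subunit, had 302, 289 and 142 counts in the other non-LRC libraries and 0 in JV6314. Pigf, a partner of the ethanolamine phosphate transferases, had 309, 225 and 128 counts in the other non-LRC libraries and 0 in JV6314. Of the 9 members other than Pigw, Piga had no read in JV621, and Pigo and Pgap1 had none in JV6314. Pigw was the 1 gene of the 39 without reads in all 4 non-LRC libraries, which is the value it was chosen by. Absence of reads was more common at low levels. Of 3766 genes read in all LLRC libraries at a mean of 2.08 to 8.31 CPM, a range around the level of Pigw set after seeing the data, 3.27%, 28%, 3.35% and 16.6% had no read in the non-LRC libraries, and 16 (0.425%) had none in all 4. Chosen the other way, by reads in all non-LRC libraries at this level, 2308 genes were found. Of these, 1.04%, 0.693%, 1.99% and 1.47% had no read in the LLRC libraries, and 0 had none in all 4.

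**Figure D3:**
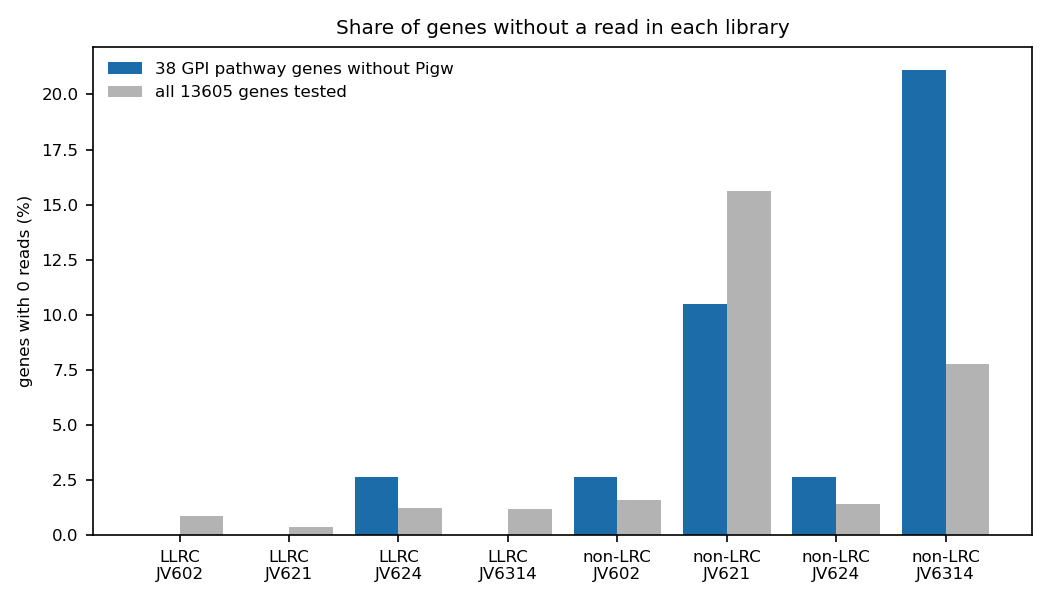
Percentage of genes with 0 reads in each library (vertical axis), for the 38 GPI pathway genes other than Pigw (blue bars) and for all 13605 genes tested (grey bars). The non-LRC libraries of JV621 (10.5% and 15.6%) and JV6314 (21.1% and 7.75%) have the highest bars.

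The spread between mice was wider in non-LRC cells. The coefficient of variation was higher in non-LRC cells for 8 of the 9 members other than Pigw, with medians of 33.5% in LLRCs and 88.7% in non-LRC cells, and Pigt was the exception (32.3% and 13.5%). It was widest in non-LRC cells for Piga (124%), Pgap1 (113%) and Pigm (110%), which had 39%, 25.9% and 16.3% in LLRCs. The same was found for 34 of the 38 pathway genes (89.5%) and for 82.5% of all genes tested, whose medians were 31.5% and 60.3%. The wider spread was thus general to the non-LRC libraries, which also had fewer reads.

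**Figure D4:**
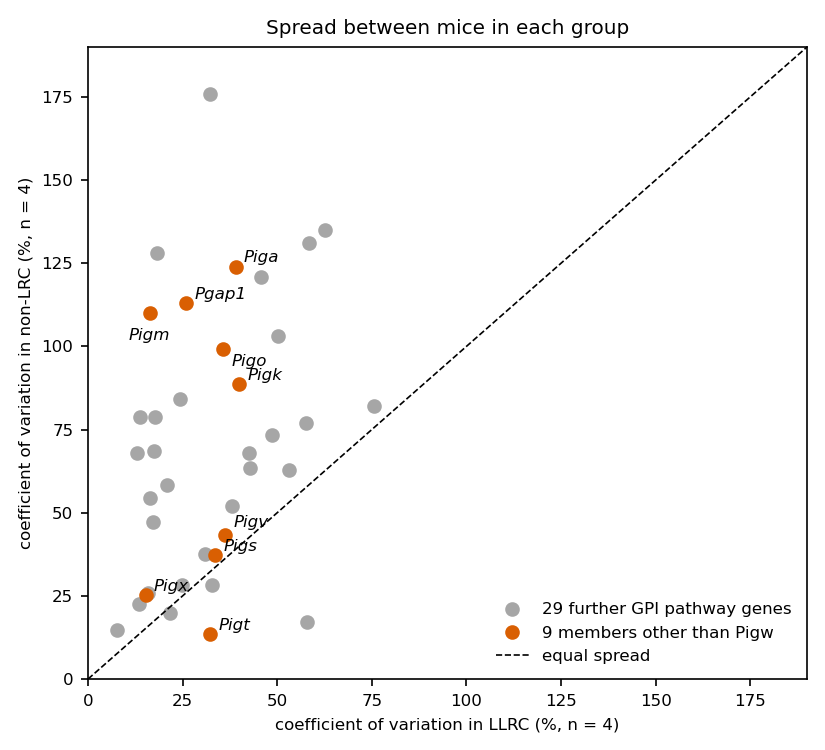
Coefficient of variation over 4 mice (SD as a percentage of the mean CPM) in LLRCs (horizontal axis) and non-LRC cells (vertical axis) for 38 GPI pathway genes other than Pigw. Orange points are the 9 members, grey points are 29 further genes, and the dashed line marks equal spread. Piga, Pgap1, Pigm, Pigo and Pigk lie far above the line, and Pigt lies below it.

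The genes most like Pigw over the 8 libraries, by Pearson's r of log2(CPM + 0.5), were Slc1a4 (0.992), Mkrn3 (0.984), Fut1 (0.975), 6430590A07Rik (0.966) and Fgr (0.945). Slc1a4, a neutral amino acid transporter, had 44, 24, 29 and 20 counts in LLRCs and 0 in the non-LRC libraries. Mkrn3, a makorin RING finger gene, had 48, 53, 32 and 17 counts in LLRCs, and Fgr, a Src family kinase, had 41, 19, 24 and 39, both with 0 counts in all non-LRC libraries. Fut1, a fucosyltransferase, had 2 counts in the non-LRC library of JV602. Each of these 5 genes had at most 2 counts in any non-LRC library. Among the members, r with Pigw was between -0.27 (Pigk) and 0.27 (Pgap1), and the member most like Pigw, Pgap1, ranked 4692 of 13604 genes. Since Pigw was at 0 in all non-LRC libraries, r mainly describes the difference between the groups, for which Pigw was chosen.

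The proteins that carry the anchor were examined with a list of 71 genes, of which 31 passed the filter. Of these, 9 had a log2 fold change above 0 and 22 below 0, with a median of -0.39. Within mice the median was -0.12 in JV602, 0.04 in JV621, -1.05 in JV624 and -0.45 in JV6314, so it was not below 0 in every mouse. In edgeR's quasi-likelihood test 0 were called, and 6 had an unadjusted p below 0.05, all 6 lower in LLRCs (3.56% of all genes tested), while 0 were higher. With the mouse as a block 4 genes had an unadjusted p below 0.05, since Cd59a, Nrn1 and Msln no longer did and Cd55 did, beside 4.18% of all genes tested. DESeq2 called 3 of the 31 (Cdh13, Gpihbp1 and Ly6a), beside 1.62% of all genes tested, and edgeR's exact test called 2 (Cdh13 and Gpihbp1), beside 0.772% of the genes that passed the filter. Cdh13, T-cadherin, had 12, 83, 3 and 8 counts in LLRCs and 624, 865, 418 and 1305 counts in non-LRC cells. Its log2 fold change was -5.55 (SE 1.06, adjusted p = 0.129 in edgeR's quasi-likelihood test). Gpihbp1, which holds lipoprotein lipase on capillary endothelium, had 5, 16, 18 and 34 counts in LLRCs and 97, 170, 174 and 399 counts in non-LRC cells, and its log2 fold change was -4.12 (SE 0.78, adjusted p = 0.124 in the same edgeR test). Every LLRC library was below every non-LRC library for 4 of the 31 genes (Cdh13, Gpihbp1, Ly6a and Cd59a), beside 1.91% of all genes tested. The study also listed Cdh13 and Gpihbp1 from these samples, so their direction is not independent evidence. Neither would have passed the expression filter on its LLRC libraries alone, so the filter favoured a difference in this direction. The summed endothelial markers given above were likewise higher in non-LRC cells, and their part in this result was not tested.

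Ly6a, which encodes the surface antigen Sca-1, had 58, 80, 53 and 72 counts in LLRCs and 114, 310, 116 and 365 counts in non-LRC cells, with a log2 fold change of -2.45 (SE 0.59, adjusted p = 0.295 in edgeR's quasi-likelihood test). Cd59a, an inhibitor of complement lysis, stood at 52.5 CPM in LLRCs against 84.3 CPM in non-LRC cells, with a log2 fold change of -0.68 (SE 0.29, adjusted p = 0.941 in the same edgeR test). The highest log2 fold changes of the list were 0.74 for Rtn4rl1 (SE 0.98), 0.60 for Cpm (SE 0.72) and 0.49 for Lynx1 (SE 0.99). The genes of the list with the most reads were read in all libraries. Ly6e stood at 771 CPM in LLRCs against 786 CPM in non-LRC cells, with a log2 fold change of -0.03. Cd24a, a surface protein of biliary epithelium, stood at 481 CPM and 383 CPM, with a log2 fold change of 0.33 (SE 0.39). Transcripts of Ly6e and Cd24a were therefore present in the non-LRC libraries in which Pigw had no read. Others of the list were not read in all of them, as Rtn4rl1 and Lynx1 had 0 counts in the non-LRC library of JV621.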

How the data were processed

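A small-input kit gave the RNA of the sorted cells, and 8 libraries were sequenced. The authors had the reads mapped to GRCm38.p4 as a service, with an aligner not given in the sources used here, and counted them on exons of Ensembl genes with HTSeq in union mode, without strand. They deposited unnormalized counts per gene. The authors' comparison table (fold changes, mean abundance, p-values and adjusted p-values) was not used.

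Genes were filtered with filterByExpr, libraries scaled by TMM (factors 0.816 to 1.232) and groups of 4 compared with the quasi-likelihood test of edgeR 4.0.16 (R 4.3.3), modelling only the group, at a Benjamini-Hochberg adjusted p of 0.05. CPM are TMM-scaled. The test was also run on simulated counts with levels taken from these data, and the outcome is not given here. DESeq2 1.42.0, edgeR's exact test, other filters and scalings, a block for the mouse and leaving out libraries in turn were alternatives. The labels name the mouse of each library, which pairs the libraries. Within a mouse, the libraries' deviations from the group mean had correlations of 0.096 (JV602), 0.074 (JV621), 0.003 (JV624) and 0.171 (JV6314). A fold against a group at 0 is a bound from 3 counts per library. Symbols and coordinates are from GENCODE M21, for 46091 genes, and promoters from RefSeq.

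The genes and lists were chosen with earlier results of these data known. Named were the 10 members, the 3 highest and 3 lowest genes of each list with any below the threshold, the 5 genes most like Pigw, and overlapping or adjacent genes. Pigu, Pigf, Cd59a, Cd55, Nrn1, Msln, Ly6e and Cd24a were added after their values were seen.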

Additional observations from a re-analysis of the deposited data

Results flagged for a closer look

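Of 19 groups of 4 libraries, which were the LLRC and non-LRC values of the 10 genes without the non-LRC values of Pigw, 2 had a library far from the rest by Dixon's criterion, where chance gives about 1 in 20. Pigk stood at 205 CPM (981 counts) in the non-LRC library of JV621 and between 41.8 and 52.7 CPM in the other non-LRC libraries. Pigv stood at 4.56 CPM (31 counts) in the LLRC library of JV624 and between 11.1 and 12.2 CPM in the other LLRC libraries. No explanation of either was tested.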

How the results depend on the processing

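Under 16 alternatives, 0 of the 9 members other than Pigw and 0 of the other pathway genes were called. The 0 counts of Pigw in non-LRC cells are the values it was chosen by, and no scaling could change them. Over all genes the number called was 0 in the quasi-likelihood test, 11 without an expression filter, 221 with DESeq2, 115 with edgeR's exact test and 1 without the non-LRC libraries of JV621 and JV6314, an alternative chosen after seeing the data. With 1 library left out it was 0 to 6, the highest when JV602 lost its non-LRC library. With the mouse as a block, which changed no call, the median log2 fold change of the pathway list was 0.20 in place of -0.03, and Piga (0.55), Pigo (0.35) and Pgap1 (1.15) changed sign. With 1 library left out, the log2 fold change ranged from -1.0 to 0.73 for Piga, -0.83 to 0.26 for Pigk, -1.69 to -0.21 for Pigm (the latter without the non-LRC library of JV621), -0.69 to 0.55 for Pigo, -0.22 to 0.11 for Pigt, -0.33 to 0.16 for Pigv and -1.12 to 0.01 for Pgap1. Pigt was at 0.00 without the non-LRC library of JV624 and Pigv at 0.06 without the LLRC library of JV624. Without the non-LRC libraries of JV621 and JV6314, Piga (0.16), Pigk (0.31), Pigv (0.06) and Pigx (0.01) changed sign. Members with all LLRC libraries below all non-LRC libraries numbered 0 to 1. The 1 was Pigm without the non-LRC library of JV624, and the share of all genes was not computed there. The cause of these changes was not tested. Pigm and Pigs kept their sign throughout. Pigo had only 0 to 22 counts a library, and 4 libraries against 4 allow a smallest exact two-sided p of 0.0286.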
